A study of Mus musculus with 2 samples.

Results

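Ptgds-high mature oligodendrocytes are myelin-forming glia of the thalamus with abundant RNA of Ptgds, the gene of lipocalin-type prostaglandin D synthase. They were described in 2 wildtype, untreated C57BL/6J mice aged 2 months, with thalamus of each animal dissociated by enzymes in a choline chloride solution and 1 10x 3' v3 library per animal. No genotype, treatment or time was compared, so every comparison is between kinds of cells within the same 2 animals. A cell was a member if it had at least 500 genes, at least 1000 unique molecular identifiers (UMIs, each standing for 1 captured RNA molecule) and at most 15% mitochondrial UMIs. It also needed a sum of Mog, Mag and Ermn of at least 5 per 10000 UMIs, Ptgds of at least 20 per 10000, no Klk6 UMI, and at most 2 UMIs of each of Pdgfra, Gpr17, Enpp6, Aqp4, Cldn5 and Cx3cr1. There were 3213 such cells among 15804 kept cells, 1337 of 6366 in mouse 1 and 1876 of 9438 in mouse 2.

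Oligodendrocytes wrap axons in myelin, a stack of lipid-rich membrane whose main proteins include Mbp and Mobp. Mature oligodendrocytes of the mouse brain are known to differ among themselves, with one end of the range rich in Ptgds and Il33 and another end rich in Klk6, S100b and Hopx, and with more of the former in grey matter than in white matter. The Ptgds enzyme converts prostaglandin H2 to prostaglandin D2, is secreted, and also carries small lipophilic molecules such as retinoids.

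Ptgds lies on chr2:25466709-25470046 (GRCm38, GENCODE vM21, minus strand). The annotations place its start differently: at 25469749 in RefSeq (GRCm38.p6), and at this base, at 25469842 or at the end of the gene's interval in GENCODE transcripts. Of the 250 bases before the RefSeq start, the 157 outside GENCODE exons are shown because Ptgds is the gene on which the cells were chosen. They span chr2:25469843-25469999 on the minus strand (RefSeq sequence), written 5′ to 3′, and the capitals mark each match to the E-box letters CANNTG, which read the same on both strands. E-boxes are bound by basic helix-loop-helix factors, the family to which Olig1 and Olig2 belong.
Ptgds: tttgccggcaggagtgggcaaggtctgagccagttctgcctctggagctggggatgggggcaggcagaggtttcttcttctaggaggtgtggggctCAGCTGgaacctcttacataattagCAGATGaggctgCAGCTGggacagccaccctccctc
The window of 250 bases held 3 matches, all in the stretch shown, as against a median of 1 over 32851 mouse promoter windows of the same length, and 12.2% of these windows held 3 or more. A match to these letters describes the sequence only.

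The comparison cells were the other oligodendrocyte-lineage cells of the same animals. Mature cells with Ptgds under 20 per 10000 and no Klk6 UMI (Ptgds-low, 78 in mouse 1 and 399 in mouse 2) and mature cells with a Klk6 UMI (Klk6-positive, 99 and 131) met the same other limits. Committed and newly formed cells, with 3 or more UMIs of Gpr17 or Enpp6, numbered 696 and 1848, and precursor cells 47 and 328. The libraries held 163418203 and 204839993 UMIs over all deposited barcodes. Members were deep, with medians of 22413 and 13357 UMIs per cell, as against 8734 and 6262 in Ptgds-low cells and 24959 and 13937 in Klk6-positive cells. The 2 libraries shared 36 barcodes, of which 18 were kept cells in both and 1 was a member in both. Scrublet called 9 and 18 members as doublets, and it called 2.84% and 2.78% of kept cells where 6.31% and 9.69% were expected.

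Members made up 88.3% of mature oligodendrocytes in mouse 1 and 78.0% in mouse 2, with exact 95% binomial (Clopper-Pearson) bounds of 86.6 and 89.9% and of 76.3 and 79.6%, where mature means the members plus the Ptgds-low and Klk6-positive cells. The intervals cover counting error only. With Klk6-positive cells taken without the Enpp6 limit and the members unchanged, the share was 71.5% and 60.5%. Among cells that met the Ptgds and Klk6 limits, the Enpp6 limit removed 174 and 143 cells, 150 and 133 of them on Enpp6 alone. Of the 696 and 1848 cells placed with committed and newly formed cells, 605 and 1127 passed the Mog, Mag and Ermn limit. When Klk6-positive cells were taken without the Enpp6 limit, 339 and 1159 cells were left in that class, so its name does not describe all its cells.

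The level of Ptgds was chosen by the rule and is given as a description. Per cell, members held a median of 155 Ptgds UMIs per 10000 in mouse 1 and 102 in mouse 2, and the tenth percentiles were 50.6 and 40.03. Ptgds-low cells held 8.197 and 6.12, and Klk6-positive cells, on which Ptgds was not limited, 82.1 and 17.7. Cells of other kinds had Ptgds well below the members' levels, and its source in them was not tested. The tenth percentiles of Ptgds-low cells, at 1.78 and 0 per 10000, were close to or under the medians of these other cells. Cells with at least 5 UMIs of the microglial gene Cx3cr1 held a median of 1.66 and 0.642 per 10000, and cells with Cldn5 of brain endothelium 1.55 and 0.602. When each cell's UMIs were split at random into 2 sets of equal expected size and cells were chosen on one set, the other set read 169 and 113 per 10000 in the chosen cells.

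The threshold of 20 cut a continuous range. Just outside it, at 15 to 20 per 10000, lay 21 cells in mouse 1 and 48 in mouse 2, and just inside, at 20 to 25, lay 11 and 44. The 21 cells outside in mouse 1 were shallow (median 1653 UMIs) and 13 of them held over 20 UMIs per 10000 of markers of other cell types, as against 4 of 11 inside. In mouse 2 these were 11 of 48 and 9 of 44. The histogram of Ptgds per cell has its largest bin at 160 to 320 per 10000 in mouse 1 and at 80 to 160 in mouse 2.

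**Figure D1:**
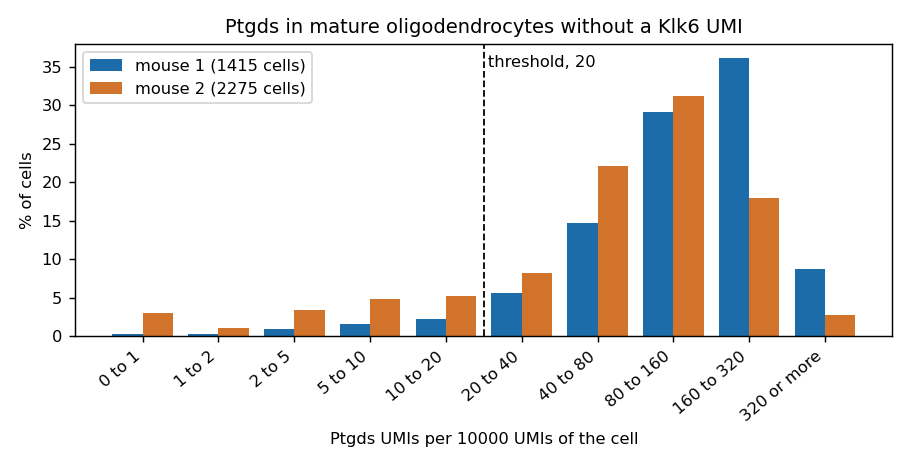
Share of mature oligodendrocytes without a Klk6 UMI (y, % of cells) in each bin of Ptgds UMIs per 10000 UMIs (x), by mouse, with the threshold of 20 as a dashed line. The largest bin is 160 to 320 in mouse 1 (36.2% of 1415 cells) and 80 to 160 in mouse 2 (31.3% of 2275 cells), and no empty bin separates the cells on either side of the threshold.

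Members held markers of mature oligodendrocytes that the rule did not use. Opalin, a myelin glycoprotein of mature oligodendrocytes, was at 1022 and 1117 CPM (UMIs of the gene per 1000000 UMIs, from counts summed over the cells) in members of mouse 1 and mouse 2. It was at 24.2 and 3.95 CPM in precursor cells and 15.8 and 9.31 CPM in Cx3cr1 cells. After thinning to 3000 UMIs, which left out 101 and 16 shallower members, 92.6% and 94.2% of members had an Opalin UMI (95.8% and 99.3% unthinned), and 5.37% and 3.795% of Cx3cr1 cells did. Car2, a carbonic anhydrase of oligodendrocytes, was at 2998 and 2408 CPM in members and 46.8 and 24.8 CPM in precursor cells. Opalin was far lower in precursor and Cx3cr1 cells, and Car2 in precursor cells, of either mouse. Those cells were chosen as other kinds of cells, so their low values are largely set by the choice. The other mature classes were closer to members. After the same thinning, 89.1% and 72.7% of Klk6-positive cells of mouse 1 and mouse 2 had an Opalin UMI. In Ptgds-low cells the shares were 71.1% and 66.7%. Mbp, which compacts the myelin membrane, was at 4222 and 4175 CPM and Mobp at 2319.96 and 2075 CPM. The rule's own genes Mog, Mag and Ermn, at 1329 and 1289, 1829 and 1970.3 and 1777 and 1156 CPM, compare with 1344 and 1304, 1785 and 2056 and 1802 and 1289 CPM in Klk6-positive cells. Enpp6, limited by the rule, was at 10.8 and 14.8 CPM.

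Members had little or no RNA of the cyclooxygenases, of the other prostaglandin D synthase or of the prostaglandin D2 receptors. Ptgs1 and Ptgs2, the cyclooxygenases that make the substrate prostaglandin H2, were at 1.74 and 0.224 CPM and 0.0949 and 0.187 CPM in members, while Ptgs1 was at 389 and 306 CPM in Cx3cr1 cells. Hpgds, the haematopoietic prostaglandin D synthase, showed the same split, with 3.16 and 0.5598 CPM in members and 731 and 688 CPM in Cx3cr1 cells. Hpgd, which inactivates prostaglandins, was at 2.25 and 0.224 CPM in members and 619.6 and 383 CPM in Cx3cr1 cells. No UMI of the prostaglandin D2 receptor genes Ptgdr and Ptgdr2 was found in members of either mouse, out of 31612218 and 26796244 UMIs, which allows up to 0.0949 and 0.112 CPM. Genes of the pathway with a clear level in members were Plaat3, a phospholipase and acyltransferase, at 467 and 446 CPM, Ptges3, a co-chaperone with prostaglandin E synthase activity, at 289 and 225 CPM, and the aldose reductase Akr1b3 at 54.3 and 60.8 CPM. Pla2g4a, the cytosolic phospholipase that frees arachidonic acid, was at 35.8 and 26.9 CPM, and Cbr1, a carbonyl reductase, at 18.6 and 14.3 CPM. Mgll, the monoacylglycerol lipase, was at 8.54 and 14.9 CPM and Faah, the fatty acid amide hydrolase, at 4.81 and 10.6 CPM. Abcc4, a prostaglandin exporter, was at 1.803 and 1.19 CPM and Slco2a1, an importer, at 0.854 and 1.83 CPM.

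Against Ptgds-low cells, the genes higher in members included Apoe, Il33 and several myelin and oligodendrocyte transcription factor genes. Many more genes were lower, among them 7 of the 9 neuron markers tested, and the Ptgds-low cells held more RNA of neuron markers in sum. The lower genes as a whole were not sorted by cell type. UMIs were summed per mouse and class and fitted with edgeR's quasi-likelihood test with mouse as a term over 14229 genes outside the rule. Genes with a log2 fold change of at least 0.5 in size and a Benjamini-Hochberg adjusted p below 0.05 were called. In all, 103 genes (0.724%) were higher in members and 1026 (7.21%) lower, and 1120 of the 1129 had the same direction in both mice. Both mice enter each call, so that agreement is largely set in advance. The 10 neuron markers summed to 168 and 751 CPM in members and to 1897 and 4390 CPM in Ptgds-low cells, with none of the 10 at 0 in both mice. In mouse 1, blood markers summed to 23884 CPM in Ptgds-low cells and 960.3 CPM in members, and microglial markers to 675 and 145 CPM. In mouse 2 these values were 187 and 382 CPM for blood, and 60.2 and 32.5 CPM for microglia. Cells with over 20 UMIs per 10000 of astrocyte, microglia, endothelial, mural, fibroblast and neuron markers together were 48.7% and 24.3% of Ptgds-low cells and 8.45% and 3.14% of members.

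Adamts1, a secreted metalloprotease that cleaves proteoglycans (chr16:85793827-85803113), had the largest increase among the named genes. It was at 45.2 and 76.5 CPM in members and 11.6 and 16.3 CPM in Ptgds-low cells of mouse 1 and mouse 2, a log2 fold change of 2.37 ± 0.33 (SE, 2 mice, edgeR adjusted p = 0.0098). Both mice had members above Ptgds-low cells. Named genes were called and moved the same way in both mice, so such agreement is largely set by the choice. Apoe, the main lipid-transport apolipoprotein of the brain (chr7:19696109-19699188), was at 1402 and 1256 CPM as against 449.8 and 345 CPM, a log2 fold change of 1.93 ± 0.38 (edgeR adjusted p = 0.024). Apoe reached 4892 and 5223 CPM in cells with Aqp4 of astrocytes, which are known to make it. Il33, an alarmin cytokine stored in the nucleus (chr19:29925114-29960718), was at 851 and 847 CPM as against 401 and 293 CPM, a log2 fold change of 1.53 ± 0.35 (edgeR adjusted p = 0.036). Il33 was higher in members than in Ptgds-low cells of either mouse, and it was at 15.6 and 32.02 CPM in Cx3cr1 cells and 6.45 and 5.27 CPM in precursor cells.

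Of 27 myelin and paranode genes tested, 4 rose and none fell, with a list median log2 fold change of 0.72 beside 0.00 over all genes. The 4 were Cd9, a tetraspanin (1.53), Cryab, a small heat shock protein (1.51), Mal, a raft protein of myelin (1.29), and Pllp, plasmolipin (1.14), each a log2 fold change. Mal was at 5717 and 4742 CPM in members and 2797 and 2141 CPM in Ptgds-low cells. The structural genes Mbp and Mobp did not pass, with Mbp at 3713 and 2823 CPM and Mobp at 2136 and 1474 CPM in Ptgds-low cells. Of 15 late mature genes, 5 rose and none fell, with a median of 0.69: Il33, Cryab, Car2, Qdpr, which regenerates tetrahydrobiopterin (1.49), and Csrp1, a LIM-domain protein (1.19). Of 22 oligodendrocyte transcription factors and related regulators, 4 rose and 1 fell. Olig2, which specifies the lineage, was at 175 and 179 CPM in members and 87.2 and 84.8 CPM in Ptgds-low cells (1.24 ± 0.25 log2, edgeR adjusted p = 0.026). Sox10, needed for myelin gene transcription, was at 282 and 215 CPM as against 150.3 and 119 CPM (1.07 ± 0.20 log2, edgeR adjusted p = 0.021). Carhsp1, an RNA-binding protein, and Zfp488, a zinc finger regulator of oligodendrocytes, also rose, the former by 1.01 on the log2 scale. Tcf7l2, a Wnt effector of newly formed oligodendrocytes that thalamic neurons also express, fell, with 89.1 and 119 CPM in members and 267 and 517 CPM in Ptgds-low cells.

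Among 17 lipid and retinoid carriers, Apoe rose, and Fabp3 and Pltp fell, the latter also one of the endothelial markers. Ttr, a retinol-binding carrier that is also a defining gene of choroid plexus, was called higher through mouse 1, with 287 and 0.187 CPM in members and 8.41 and 0.2196 CPM in Ptgds-low cells. In mouse 1 Ttr was at 2259 CPM in members with 40 to 80 Ptgds UMIs per 10000 and at 11.2 and 5.10 CPM in those below and above. The 8 choroid plexus and ependymal markers, Ttr included, summed to 316 and 30.3 CPM in members and 25.2 and 16.3 CPM in Ptgds-low cells, and their part in this call was not tested. A gene that missed the threshold is not shown to be equal between the classes. None of 24 cholesterol synthesis genes passed (median 0.14), and none of 24 fatty acid and sphingolipid synthesis genes (median 0.42), 14 iron-handling genes (median -0.14) or 13 glucocorticoid response genes (median 0.33). Among 21 potassium, channel and gap junction genes, 2 rose, among them the sodium pump subunit Atp1b3 (1.12), and Kcnk1, Atp1b1 and Gabrb1 fell. Atp1b1, a subunit that neurons use, was at 19.5 and 54.97 CPM in members and 272 and 420.1 CPM in Ptgds-low cells. Of 16 prostaglandin pathway genes, Mgll and Ptger3 were lower and none higher, with a median of -0.72. Of 18 antigen presentation, interferon and injury genes, 2 rose, Il33 and Ifi27 (1.16), a mitochondrial protein induced by interferon. Of 30 immediate early and stress genes 2 fell, Ier3 and Hspb1, and of 25 axon contact genes 3 fell, Lingo1, Nrcam and Sema5a. The first of these shares is no larger than the 7.21% over all genes. Ldhb, Pfkm and Hk1 fell among 19 genes of energy supply, and 5 of 23 cytoskeleton genes fell, among them Tubb3 of neuronal microtubules. Of 11 genes of the Klk6 type 1 rose, Cyp2j6 (0.90), of a family with close copies, and 3 fell, Syt4, Dpp6 and Mgst3, with a median of -0.75. Some of these counts changed with a planned stricter exclusion of other cells (also at most 2 UMIs of each of Dcn, Slc6a13, Vtn, Snap25, Slc17a6 and Slc1a2), under which 7.13% of genes were called higher and 5.99% lower. There 3 energy genes were higher (Aldoa, Pgk1 and Ldha) and none lower. Fatty acid and sphingolipid genes then had 4 higher and 2 lower, and glucocorticoid response genes 3 higher and 1 lower. Late mature genes had 5 higher and 2 lower, Anln and Selenop, with a median of 0.22. Of 11 prostaglandin pathway genes 1 was higher and 5 lower, and of 24 axon contact genes 2 were higher and 6 lower. Myelin and paranode genes had 7 higher and none lower.

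Outside the lists, the higher genes after Adamts1 were Bfsp2, a beaded filament protein (214 and 109 CPM as against 70.4 and 32.5 CPM), Traf5, a signal adaptor (194 and 109.6 as against 65.2 and 36.7 CPM), and Tent5a, a poly(A) polymerase (78.7 and 47.3 as against 28.4 and 16.3 CPM). Gstp1, a glutathione transferase with near-identical copies in the mouse genome and therefore uncertain, differed by 1.79 on the log2 scale. Cavin3 of caveolae (1.61), the haem-binding Hebp1 (1.40) and the signal peptidase subunit Sec11c (1.32) followed. The 8 lower genes were Hs3st4, Nrsn1, Basp1, Gap43, Foxp2, Bex1, Fxyd7 and Rtn1, with log2 fold changes from -4.54 to -3.48. Most are known from neurons: Gap43 and Basp1 are growth cone proteins and Foxp2 is a transcription factor of thalamic neurons. Gap43 was at 4.93 and 27.2 CPM in members and 133 and 227 CPM in Ptgds-low cells, and Rtn1 at 19.2 and 50.6 and 315 and 511 CPM.

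Without mature cells that held over 20 UMIs per 10000 of other cells' markers, an alternative added after the data were seen, no gene was called in either direction (0.0% of 13591, 1713 at an unadjusted p below 0.05). The higher genes named next kept most of their size relative to the fit over all cells, while neuronal genes such as Gap43 did not. The higher genes named next were picked from those that kept their size and do not stand for all higher genes. Values in these cells for others, such as Il33, Mal, Olig2 and Sox10, are not given in the text. The limit counts neuron markers, so the smaller change of neuronal genes is largely set by the choice of cells. The sizes given next include a shift of the median over all genes from 0.00 to 0.20. List medians came closer to that median, at 0.43 for myelin and paranode genes and 0.32 for late mature genes. Over all cells they were 0.72 and 0.69. Adamts1 was then 2.32 ± 0.32 (edgeR adjusted p = 0.16), Apoe 2.23 ± 0.39 (0.21), Traf5 1.67 ± 0.30 (0.21), Bfsp2 1.60 ± 0.27 (0.21) and Tent5a 1.46 ± 0.24 (0.21) on the log2 scale. Gap43 was -0.19 ± 0.34 and Tubb3 -0.18 ± 0.32, while Tmsb10, Fxyd7, Mgst3, Tubb2a, Ldhb, Tcf7l2, Nrcam and Hs3st4 changed sign. Apoe was at 1355 and 1289.8 CPM in these members and 259 and 402 CPM in these Ptgds-low cells. Without mouse as a term none of the genes was called either (2635 at an unadjusted p below 0.05), and none at a Ptgds threshold of 10 (2699).

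**Figure D2:**
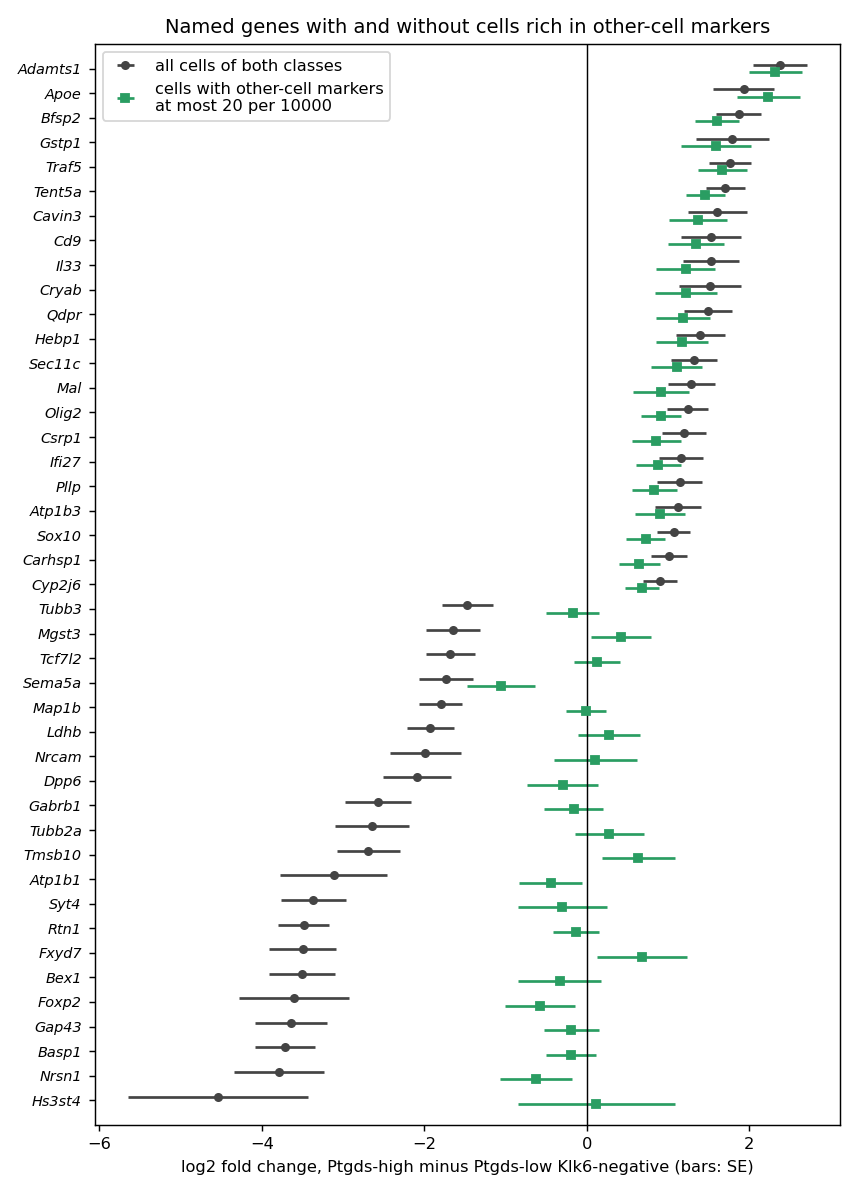
Log2 fold change of members against Ptgds-low cells (x, with SE bars, 2 mice) for the named genes (y), over all cells of both classes (circles) and over cells with at most 20 UMIs per 10000 of other cells' markers (squares). Some genes higher in members, such as Adamts1 (2.37 and 2.32), keep most of their size, while neuronal genes such as Gap43 (-3.64 and -0.19) move to near 0. The limit counts neuron markers, so the move of neuronal genes is largely set by the choice of cells. The median over all genes is 0.00 and 0.20.

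Against Klk6-positive cells as the rule's limits leave them, no gene was called (0.0% of 14229 genes in either direction, 899 at an unadjusted p below 0.05), and DESeq2 called 5 genes higher and 106 lower. The limit of 2 Enpp6 UMIs removed most Klk6-positive cells from that class. Without it there were 456 and 827 of them, of which 357 (78.3%) and 696 (84.2%) were above it, and of those with 3 or more Klk6 UMIs 253 of 259 and 524 of 541 were. Most of the Klk6-positive cells above the limit had been placed with committed and newly formed cells. Enpp6 is best known from newly formed oligodendrocytes. A further comparison, added after the data were seen, kept the members and took the Klk6-positive cells without the Enpp6 limit. There 74 genes (0.449% of 16498) were higher in members and 215 (1.3%) lower. All 289 had the same direction in both mice, which is again largely set by the call. Klk6, Enpp6 and Ptgds are set by the choice of cells and are not among them. Members kept the Enpp6 limit and these Klk6-positive cells did not. Differences that go with Klk6 and those that go with Enpp6 cannot be told apart here.

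Against these Klk6-positive cells, members were low in a group of genes long used to mark the Klk6 end of the mature range. S100b, a calcium-binding protein, was at 27.9 and 20.9 CPM in members and 709 and 872 CPM in these Klk6-positive cells, a log2 fold change of -4.90 ± 0.36 (edgeR adjusted p = 0.0014). Hopx, an atypical homeodomain protein, was at 1.52 and 3.58 CPM as against 107 and 165 CPM (-5.72 ± 0.32, adjusted p = 0.00032 by edgeR). Anxa5, which binds phosphatidylserine, was at 13.5 and 14.4 CPM as against 126 and 177 CPM (-3.34 ± 0.30). In each of the 3 genes both Klk6-positive values lay above both member values, which is largely set by naming called genes. Under the rule's own limits, an S100b UMI was in 13.0% and 22.7% of Klk6-positive cells after thinning to 3000 UMIs. The share of members with one was 7.52% and 6.45%. Nkx2-9, a homeodomain transcription factor (chr12:56611389-56613284), was nearly confined to one side: 12 and 2 UMIs in all members of mouse 1 and mouse 2, and 948 and 947 in Klk6-positive cells. Per UMI summed, Klk6-positive cells held 149.7-fold more in mouse 1 (95% counting interval 85.3 to 290.7) and 654-fold more in mouse 2 (180.5 to 5408), where 2 UMIs set the ratio. Nkx2-9 had 56.8 and 48.8 CPM in these Klk6-positive cells, and the edgeR adjusted p was 0.00032.

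Further genes were lower in members. Cntn3, an axonal adhesion molecule, was at 14.2 and 36.1 CPM in members and 204 and 299 CPM in Klk6-positive cells. Agmo, which cleaves ether lipids, was at 13.98 and 22.95 and 121 and 194 CPM, and Selenop, the selenium-carrying protein, at 180.1 and 196 and 844 and 961 CPM. Pmp22, a tetraspan protein of peripheral myelin, was at 87.4 and 90.6 as against 402 and 427 CPM (-2.12 ± 0.29 log2). Log2 fold changes of Tspan9, Aff3, Rapgef5, Tln2, Agmo and Arfgef3 lay between -3.11 and -2.74. From the lists, Sema5a, a guidance molecule (-2.61), Ldhb, a lactate dehydrogenase subunit (-2.47), Mgst3, a microsomal glutathione transferase (-2.40), Rnd2, a small GTPase (-1.97), and Padi2, which citrullinates myelin proteins (-1.33), were also lower. Of 21 prostaglandin pathway genes 3 fell, Faah, Mgll and Pla2g4a, the last with 35.8 and 26.9 CPM in members and 103 and 111 CPM in Klk6-positive cells (-1.72 ± 0.27). None of the pathway genes rose.

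Genes higher in members were fewer. Kit, a receptor tyrosine kinase (chr5:75574916-75656722), was at 46.2 and 70.6 CPM in members and 10.5 and 7.01 CPM in Klk6-positive cells, a log2 fold change of 2.88 ± 0.43 (edgeR adjusted p = 0.015). Kirrel3, a synaptic adhesion molecule, was at 670.3 and 1153 CPM as against 215 and 170.00 CPM (2.31 ± 0.33). Il33, the nuclear alarmin, was at 851 and 847 CPM as against 319.7 and 142 CPM (2.13 ± 0.40, edgeR adjusted p = 0.038). The 2 mice had nearly the same Il33 level in members. That the Klk6-positive values lay below both is largely set by naming called genes. Synpr, a synaptic vesicle membrane protein, was at 185 and 240.2 CPM as against 65.04 and 47.1 CPM, and Fbn2, a fibrillin of the matrix, at 123 and 81.3 as against 37.2 and 14.2 CPM. Rhoj, a small GTPase (2.28), Adamts1 (2.25), Ust, a uronyl sulfotransferase (1.98), Hebp1 (1.94) and the lipid transporter Abca8b (1.11) were higher too, each in log2. Adamts1, Il33 and Hebp1 were thus among the named higher genes in both comparisons, which share the members' own sums.

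In this comparison 7 of the 17 gene lists held no called gene, and the others held few. Of 27 myelin and paranode genes 1 was called, Padi2, and the list median was 0.23 beside 0.01 over all genes. None of 24 cholesterol synthesis genes (median -0.25), 24 fatty acid and sphingolipid genes (median -0.09), 14 iron genes, 30 immediate early and stress genes or 23 cytoskeleton genes passed. Of the 11 genes of the Klk6 type, 3 fell and none rose (Hopx, Anxa5, Mgst3), with a median of -1.12. That list was drawn up from knowledge of Klk6 oligodendrocytes, so its direction is no independent evidence. Of 15 late mature genes 1 rose, Il33, and 4 fell, S100b, Selenop, Pmp22 and Anln. S100b stands on this list but is also known from the Klk6 end, so this count does not measure maturity alone. Of 22 transcription factors 1 rose, Zfp488. Neuron markers summed to 522 and 1431 CPM in these Klk6-positive cells and 168 and 751 CPM in members, with none of the 10 called, and the part of that RNA in the comparison was not tested.

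**Figure D3:**
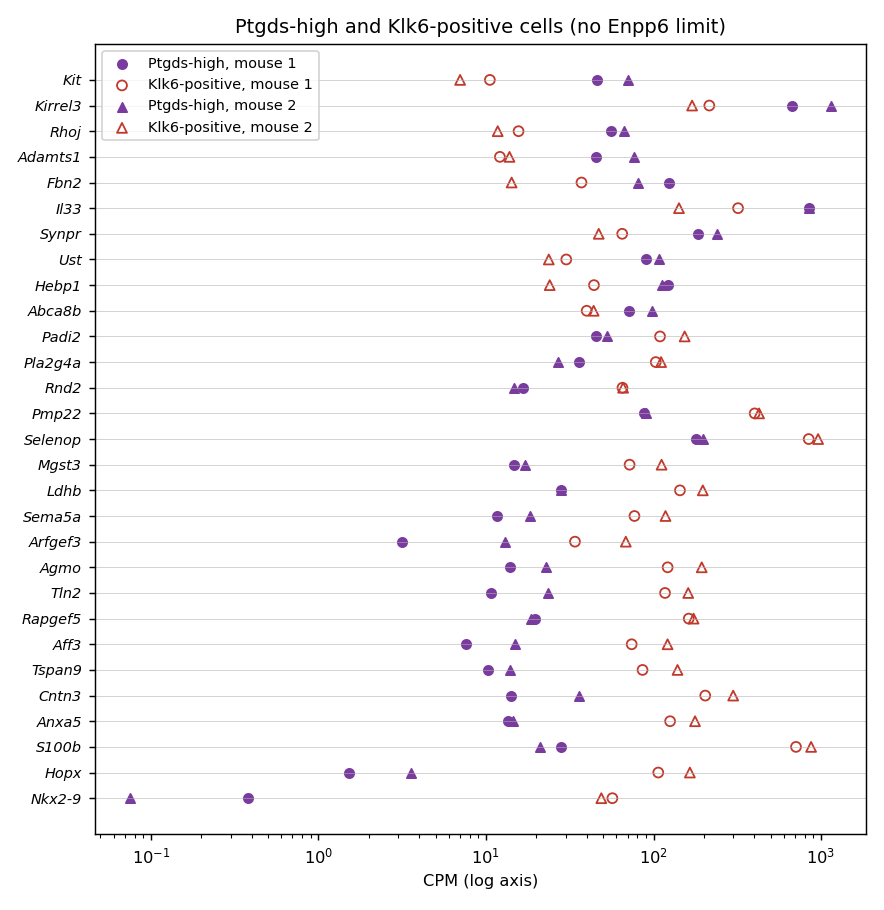
CPM (x, log axis) of each named gene (y) in members (filled) and in Klk6-positive cells taken without the Enpp6 limit (open), with circles for mouse 1 and triangles for mouse 2. In every gene shown both member values lie on the same side of both Klk6-positive values, with Kit at 46.2 and 70.6 against 10.5 and 7.01 CPM and S100b at 27.9 and 20.9 against 709 and 872 CPM. The genes were chosen as called, large in change and of the same direction in both mice, so this separation is largely set by the choice.

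Members also varied among themselves, and Ptgds led that variation. In members thinned to 3000 UMIs, the Fano factor (variance over mean of the UMIs per cell) of Ptgds was 21.0 in mouse 1 and 17.3 in mouse 2, as against medians of 1.13 and 1.14 over 853 genes with a mean of at least 0.5 UMIs. Among the 10 genes of highest mean rank were Ptgds, Malat1, mt-Atp6, Pcdh9, mt-Co3, Fth1, Gm42418, mt-Co2 and Apoe. Several of these are among the most abundant RNAs or are mitochondrial. Apoe was the least abundant of the 10, with means of 4.50 and 4.52 UMIs per thinned cell and Fano factors of 4.53 and 4.48. Kirrel3 came next, with 3.84 and 5.24.

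Kit and a small set of other genes were higher in members with more Ptgds, while Mbp and Mog were nearly level. Members were placed in bins of Ptgds at 20 to 40, 40 to 80 and 80 or more per 10000. Only members with at most 20 UMIs per 10000 of other cells' markers were used, because over all members the neuron markers summed to 1250 and 3036 CPM in the lowest bin and 120.1 and 428 CPM in the highest. Without those cells the sums were 132.0 and 326 CPM in the lowest bin and 118 and 292 CPM in the highest. This left 42, 154 and 1028 cells in mouse 1 and 162, 494 and 1161 in mouse 2, with median depths from 18020.0 to 23691 UMIs and from 12454 to 13810.5 UMIs. Of 3222 genes with at least 50 CPM, blood markers, mitochondrial and ribosomal protein genes and unnamed models left out, 8 were at least 2-fold higher in the top bin than in the bottom bin in both mice and 6 at least 2-fold lower. As each mouse is 1 library, these are descriptions without a test, and the log2 ratios use a pseudocount of 0.1 CPM. Blood markers, which the limit on other cells does not cover, were also higher in the top bin. Hbb-bs, a haemoglobin chain, was at 128, 139.9 and 461 CPM in mouse 1 and 39.7, 186 and 254 CPM in mouse 2, and Hba-a1, Hba-a2 and Hbb-bt were likewise more than 3-fold higher in the top than in the bottom bin of either mouse. The part of blood RNA in these bins was not tested.

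Kit was at 3.96, 11.9 and 52.4 CPM in mouse 1 and 11.97, 49.6 and 90.8 CPM in mouse 2 from the lowest to the highest bin. The lowest value in mouse 1 rests on 3 UMIs, and the ratio of the top to the bottom bin was 13.2 in mouse 1 (95% counting interval 4.52 to 64.2) and 7.58 in mouse 2 (5.12 to 11.8). Pcdh7, a protocadherin adhesion molecule, was at 29.04, 41.9 and 200.04 CPM in mouse 1 and 72.3, 175 and 317 CPM in mouse 2. Both genes were higher at each step in both mice. Tent5a was at 32.995, 38.1 and 86.8 CPM in mouse 1 and 17.2, 31.8 and 59.99 CPM in mouse 2, and Apoe at 663, 830.3 and 1448 CPM in mouse 1 and 772, 855 and 1552 CPM in mouse 2. Kirrel3 was at 244, 375 and 733 CPM in mouse 1 and 651, 986 and 1329.98 CPM in mouse 2. The other genes past 2-fold, blood markers aside, were Cntn1, a paranodal adhesion molecule (log2 ratios 2.32 and 1.38), Synpr (2.65 and 1.07) and Zfpm2, a cofactor of GATA factors (1.46 and 1.06).

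In the other direction, Selenop was at 449, 287 and 149 CPM in mouse 1 and 357, 265 and 154 CPM in mouse 2, and Anln, a septin-binding scaffold of myelin, at 405, 366 and 185 CPM in mouse 1 and 342, 249 and 153 CPM in mouse 2. Rftn1, a raft protein, was at 103, 85.8 and 39.2 CPM in mouse 1 and 112, 73.6 and 41.9 CPM in mouse 2. These 3 genes were lower at each step in both mice. Grik1, a kainate receptor subunit (-2.93 and -1.04), Slco3a1, an organic anion transporter (-1.26 and -1.01), and Mboat1, a lysophospholipid acyltransferase (-1.04 and -1.07), were the other 3. Selenop, Anln and Pmp22, which lay lower in members than in Klk6-positive cells, also lay lower in the Ptgds-richest members, Pmp22 with log2 ratios of -0.87 and -0.64. Enpp6, limited by the rule, was lower over these bins too, at 33.0, 23.8 and 8.16 CPM in mouse 1 and 30.6, 22.3 and 10.0 CPM in mouse 2. The part of Enpp6 in these differences was not tested. Mbp was at 4204, 4484 and 4230.4 CPM in mouse 1 and 4580.4, 4474 and 4220.2 CPM in mouse 2, and Mog at 1280.2, 1383 and 1338 CPM in mouse 1 and 1329, 1347 and 1324 CPM in mouse 2, with no step of a size near that of Kit.

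**Figure D4:**
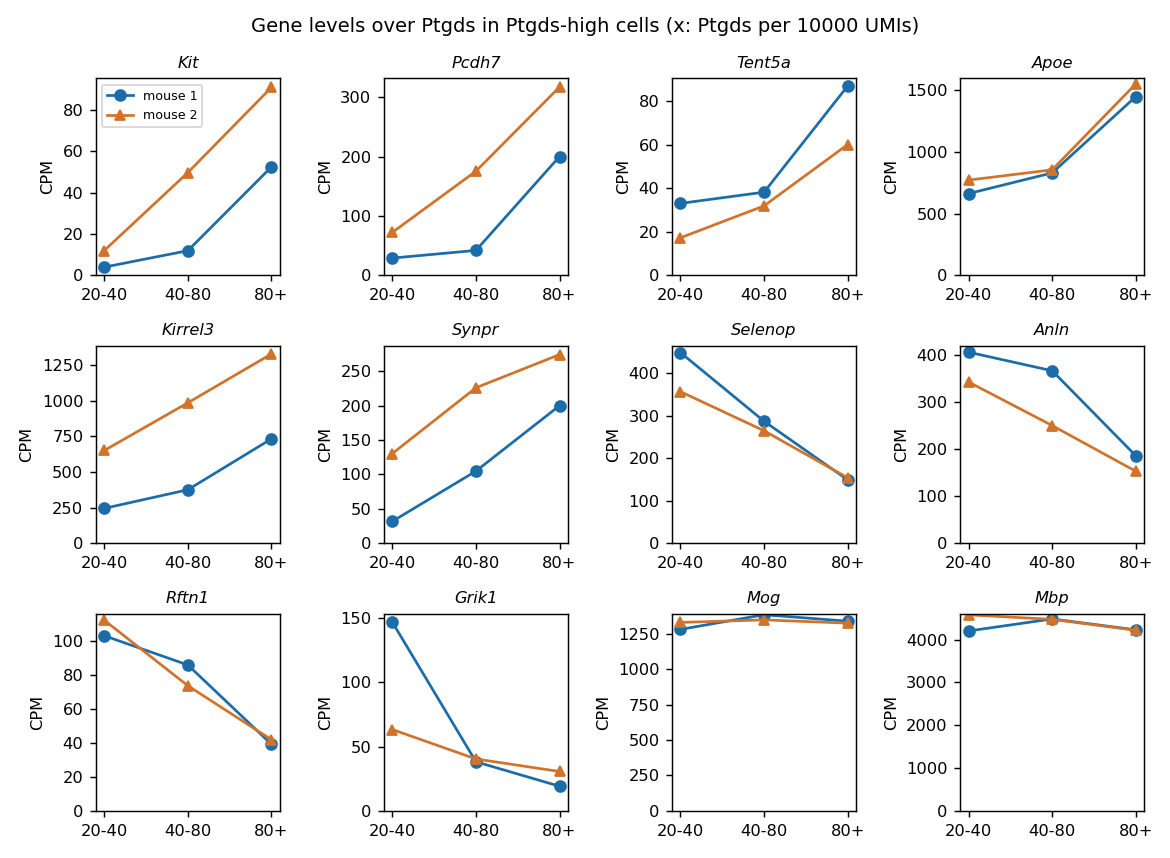
CPM (y, linear and from 0, a scale per panel) of 12 genes in members of mouse 1 (circles) and mouse 2 (triangles) in 3 bins of Ptgds per 10000 UMIs (x), each point the summed counts of 1 bin of 1 mouse over members with at most 20 UMIs per 10000 of other cells' markers. Kit and Pcdh7 are higher at each step in both mice, Selenop and Rftn1 lower at each step, and Mog and Mbp stay nearly level.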

How the data were processed

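Thalamus of 2 mice was measured by single-cell RNA sequencing with 1 library each. The authors deposited unnormalised counts of UMIs for each gene in each barcode, made with Cell Ranger 7.1.0 and the mm10 build, per the submitters' processing notes; Seurat 5 is named there with no role. Which annotation was used, and whether introns or strand entered, was not given in the sources used here, so overlapping genes cannot be told apart. Coordinates are from GENCODE vM21 (32158 of 32285 genes matched).

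UMIs of each of 5 oligodendrocyte-lineage classes were added up within each mouse (10 sums). They were fitted with edgeR 4.0.16 (R 4.3.3; TMM, filterByExpr, robust quasi-likelihood) on class plus mouse, since each class comes from the same 2 animals, with 4 residual degrees of freedom and a common biological coefficient of variation of 0.234. With mouse as a term, p-values measure how class differences vary between the 2 animals. That spread is pooled over all 5 classes, with committed and precursor cells included, so the calls depend on which classes are fitted. Adjustment was over all 14253 genes fitted. The fit was tested on simulated counts with known changes.

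The members, gene lists and markers were chosen with earlier results of these data known. Named genes were, per comparison, up to 4 called genes per list and up to 8 higher and 8 lower outside the lists, by size of change, provided both mice moved the same way and the higher side reached 50 CPM. Other genes named were chosen after their values were seen. Some genes are not reported here. Mitochondrial and ribosomal protein genes and unnamed models were not eligible. Of 344 listed symbols 2 were not matched. Doublets were marked with Scrublet (scanpy 1.11.5) and kept, except in 1 alternative. Alternatives covered scaling, filter, tool (DESeq2 1.42.0), thresholds, depth, doublets, exclusion of other cells, choice and reading on separate UMIs and each mouse left out.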

Additional observations from a re-analysis of the deposited data

How the results depend on the processing

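Against Ptgds-low cells, 103 genes were higher and 1026 lower. The higher count was 378 with the DESeq2 test, 224 with no low-count filter, 931 with the 3 mature classes only, 45 at a Ptgds threshold of 40, 2 without cells at 10 to 20, 657 at a mitochondrial limit of 5%, 802 with stricter exclusion of other cells, 394 with choice and reading on separate UMIs, 360 after thinning to 3000 UMIs, and 67 at a minimum log2 change of 1. Among alternatives added later it was 190 in cells of 5000 to 15000 UMIs and 166 with Klk6-positive cells freed of the Enpp6 limit. The lower count was 1599, 32, 1579, 673 and 245 with DESeq2, without cells at 10 to 20, at 5%, with stricter exclusion and at 5000 to 15000 UMIs. Both were 0 at a threshold of 10, with no replicate block (the pairing of classes by mouse) and among cells low in other markers. Against Klk6-positive cells, where none was called and the fit without the block also called 0, higher and lower counts were 5 and 106 with DESeq2, 20 and 55 with stricter exclusion, 22 and 126 on separate UMIs, 381 and 449 after thinning, and 74 and 215 without the Enpp6 limit; lower counts alone were 8 without the filter, 1 at 5% and 10 at 5000 to 15000 UMIs. The share of members was 90.4, 83.0, 83.7, 90.1 and 79.9% in mouse 1 at thresholds of 10 and 40, at 5%, at 5000 UMIs or more and after thinning, and 82.9, 70.2, 84.5, 82.1 and 64.3% in mouse 2, where separate UMIs gave 72.9%. Signs reversed, in log2 against Ptgds-low cells, for Mgst3 (0.12 with stricter exclusion, 0.26 at 5000 to 15000 UMIs, 0.42 in cells low in other markers), Ldhb (0.33 and 0.27 in the last 2 settings), Tmsb10 (0.58 and 0.63), Fxyd7 (1.10 and 0.68), Tubb3 (0.043) and Gap43 (0.15) at 5000 to 15000 UMIs, and Tcf7l2 (0.13), Nrcam (0.10), Tubb2a (0.28) and Hs3st4 (0.12) in cells low in other markers. Fewer cells enter several of these settings; otherwise the cause was not tested. Leaving out a mouse leaves no spread to test. In the other mouse, 102 to 103 called higher and 1011 to 1026 called lower genes kept their direction at a log2 change of at least 0.5. Both mice had entered those calls, so this is no replication in a separate animal. Against Klk6-positive cells, with no called gene, the count was 0 in either case.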

Other observations

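The 2 mice differed in the level of some RNAs within members, which with 1 library per animal are values and no comparison. Immediate early genes, which answer quickly to stimulation, were low in mouse 1 and high in mouse 2: Fos was at 2.75 and 270.04 CPM, Egr1 at 2.47 and 214 CPM, Fosb at 0.316 and 89.4 CPM and Junb at 4.49 and 61.2 CPM. Fos was also at 117 and 2149 CPM in Cx3cr1 cells. Cryab was at 4946 and 2243 CPM, Gstp1 at 476 and 148 CPM and Kirrel3 at 670.3 and 1153 CPM in mouse 1 and mouse 2, while Mog (1329 and 1289 CPM), Mbp (4222 and 4175 CPM) and Il33 (851 and 847 CPM) were close.

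Some cells outside the oligodendrocyte lineage held Ptgds as well. Among cells with at least 5 UMIs of Dcn, a gene of meningeal fibroblasts (20 in mouse 1 and 46 in mouse 2), the median was 1.86 and 1.003 Ptgds UMIs per 10000 and the highest cell held 345 and 453. Apod, another secreted lipocalin, was at 8013 and 13838 CPM in the Dcn cells and 1734 and 1199.5 CPM in members.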
